A study of Mus musculus with 2 samples.

Results

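The R-loop peaks described here are distal intergenic: they overlapped no gene of the GENCODE M1 annotation and lay more than 10 kb from the nearest protein-coding gene. They numbered 3022 of the 22132 peaks mapped in mouse neural stem and progenitor cells (NSPCs), or 13.7% (95% exact binomial interval 13.2 to 14.1%). The remaining peaks comprised 2217 intergenic peaks within 10 kb of a protein-coding gene, 7235 purely intronic peaks, and 9658 peaks that overlapped an exon. Primary NSPCs are cultured brain progenitors, here from the frontal brains of C57BL/6 mice at postnatal day 7, and they carried no engineered allele that the labels name. Per the study's methods, which the sample labels do not repeat, the cells had been treated with 0.5 µM aphidicolin, a DNA polymerase inhibitor, for 48 h. DRIP-seq pulls down RNA:DNA hybrids from restriction-digested genomic DNA with the S9.6 antibody and sequences what is recovered. The list is 1 set of positions on the NCBI37/mm9 genome with no signal or score, so no replicate error could be given for any value, the depth behind a peak is unknown, and no treatment was compared.

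An R-loop consists of an RNA strand paired to 1 strand of the DNA, with the other DNA strand left single. R-loops form mostly during transcription, and hybrids between a purine-rich RNA and a pyrimidine-rich template are known to be particularly stable. Intergenic sequence holds enhancers, unannotated noncoding transcripts, CpG islands, and simple repeats, which are short units copied in tandem. Stretches with purines on 1 strand and pyrimidines on the other can also form triplex structures.

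Several kinds of sequence recurred under distal peaks, and examples are given, read from mm9 5′ to 3′. The AC run and the CpG-rich window were the most extreme of their kind among the peaks named by a rule, and the Cdh10 and Chaserr windows were chosen after their values were seen. The first window lies on the minus strand at chr15:85508149-85508266, inside the widest distal peak, and its capitals mark an exact AC run of 58 bases. This run lies outside the central 1 kb of its peak, so it is not among the runs counted below. The second, on the plus strand at chr15:19647479-19647678, comes from a peak of 10.1 kb in the gene desert beside Cdh10 and has 117 G and 1 C, with capitals at runs of at least 3 G. The third, on the plus strand at chr15:85501193-85501392, comes from the same peak as the first. It is CpG-rich, with 39 CpG dinucleotides in capitals among its 200 bases. The last, on the minus strand at chr7:80703232-80703381, is the start of the noncoding RNA gene Chaserr upstream of Chd2, with the first 50 transcribed bases in capitals.
AC run: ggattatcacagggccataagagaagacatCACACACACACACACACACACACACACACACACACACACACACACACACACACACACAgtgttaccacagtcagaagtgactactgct
Cdh10 purine stretch: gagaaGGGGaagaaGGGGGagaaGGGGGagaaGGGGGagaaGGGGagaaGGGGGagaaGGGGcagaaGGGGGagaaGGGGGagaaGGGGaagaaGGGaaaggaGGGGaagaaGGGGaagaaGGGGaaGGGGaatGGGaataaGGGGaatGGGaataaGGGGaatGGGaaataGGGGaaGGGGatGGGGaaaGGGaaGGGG
CpG-rich window: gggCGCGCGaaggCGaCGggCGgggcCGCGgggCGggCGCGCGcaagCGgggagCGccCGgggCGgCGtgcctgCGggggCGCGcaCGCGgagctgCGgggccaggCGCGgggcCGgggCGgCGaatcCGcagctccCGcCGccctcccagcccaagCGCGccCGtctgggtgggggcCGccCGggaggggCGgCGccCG
Chaserr start: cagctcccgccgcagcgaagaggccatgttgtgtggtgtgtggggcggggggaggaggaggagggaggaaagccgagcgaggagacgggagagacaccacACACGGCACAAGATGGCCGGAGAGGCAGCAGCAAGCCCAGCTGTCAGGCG

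Distal peaks were narrower and more scattered than other peaks. Their median width was 588.5 bp, compared to 966 bp for intergenic peaks near genes, 856 bp for purely intronic peaks, and 2480 bp for exonic peaks. The narrowest spanned 101 bp and the widest 23848 bp, and 668 distal peaks (22.1%) reached 1 kb, against 48.9% of the peaks near genes. Because they were narrow, distal peaks covered 2624 kb, or 5.35% of the bases in peaks, although they made up 13.7% of the list. Distal intergenic sequence amounts to 1258 Mb, or 49.2% of the assembled bases on chromosomes 1 to 19, X, and Y. Peak density there was 2.40 peaks per Mb, compared to 8.97 peaks per Mb in the 247 Mb of intergenic sequence within 10 kb of a gene. Only 16.3% of distal peaks had another peak within 10 kb, against 53.9% near genes, and 34.8% had none within 100 kb, against 8.62% near genes.

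The density of peaks fell steadily with distance from genes. The median distance of distal peaks to a protein-coding gene was 56.7 kb, with quartiles at 24.2 and 151 kb. From 10 to 20 kb the density was 4.19 peaks per Mb, from 50 to 100 kb it was 2.89, from 200 to 500 kb it was 1.45, and beyond 1000 kb it was 0.710. Thus 37 peaks lay farther than 1000 kb from any protein-coding gene. Peaks from 10 to 20 kb had a median width of 659 bp, those from 200 to 500 kb had one of 546.5 bp, and the 37 peaks beyond 1000 kb had one of 851 bp. At the limit itself, the innermost distal peaks lay 10.020 kb from Ndfip1 and 10.038 kb from Mrps18a, and the outermost peaks left out lay 9.995 kb from Spats1 and 9.975 kb from Tfrc.

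**Figure D1:**
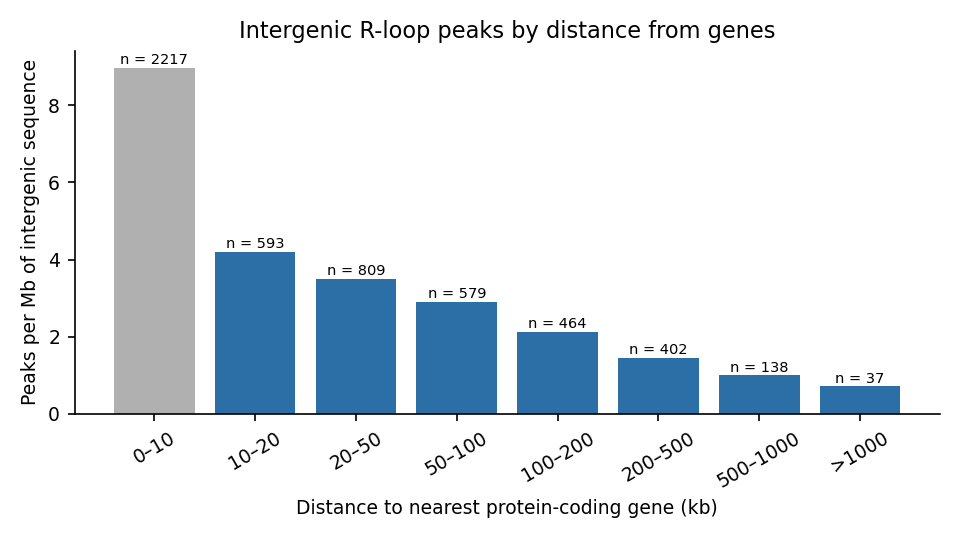
Intergenic R-loop peaks per Mb of intergenic sequence (y axis) by distance to the nearest protein-coding gene in kb (x axis); the grey bar is the peaks within 10 kb, blue bars are distal peaks, and n is the number of peaks in each bin. The density drops from 8.97 peaks per Mb within 10 kb to 0.710 peaks per Mb beyond 1000 kb.

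Distal peaks showed little preference for either side of a gene. The nearest protein-coding gene presented its start to 1534 distal peaks (50.8%), close to the 52.3% of distal sequence on that side. Intergenic peaks within 10 kb were start-sided in 35.5% of cases and lay past the gene end in 64.5%. The share of distal peaks between divergent, tandem, and convergent neighbours was 25.9, 51.3, and 22.4%, against 27.1, 50.0, and 22.6% of the distal sequence. Across autosomes, density ranged from 1.93 peaks per Mb of distal sequence on chromosome 3 to 3.52 on chromosome 5. The X chromosome had 57 distal peaks, at 0.581 peaks per Mb. Peaks of all classes were sparse there, with 293 in 162 Mb, compared to 1029 in the 156 Mb of chromosome 3. Distal peaks made up 19.5% of the X peaks, 17.4% on chromosome 3, 14.3% on chromosome 5, and 13.6% over all autosomes. The labels used here give no sex for the donor animals, so X copy number was not tested.

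The most common feature of distal peaks was a short tandem repeat. Exact tandem runs of units of 1 to 6 bases, at least 24 bases long, were searched in the central 1 kb of each peak and in all 1243039 tiles of 1 kb that make up distal sequence. Such a run was present in 2038 distal peaks (67.4%, 95% exact binomial interval 65.7 to 69.1%), compared to 41.9% of intergenic peaks near genes, 40.7% of purely intronic peaks, 15.6% of exonic peaks, and 21.5% of tiles. Among distal peaks under 1 kb the share was 71.2%, and among those of at least 1 kb it was 54.0%. At the same width limit, runs were found in 50.6% of peaks under 1 kb near genes and in 48.3% of intronic peaks under 1 kb. The share was also higher farther from genes, from 58.9% at 10 to 20 kb to 76.1% at 200 to 500 kb. In 1860 distal peaks a run overlapped the peak itself, and the longest run had a median length of 44 bases and a maximum of 296 bases.

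A pair of repeat kinds made up most runs. The unit AC, which reads GT on the other strand, occurred in 1058 of the 3022 distal peaks and in 8.24% of distal tiles. Units made of A and G on 1 strand, and hence of T and C on the other, occurred in 1046 distal peaks (34.6%) and in 7.24% of tiles. Both kinds together were present in 231 peaks, and either kind in 1873 (62.0%, against 14.1% of tiles). AG was the most frequent unit of the second kind, found in 12.4% of distal peaks and in 4.09% of the tiles sampled for single units. The trinucleotides AAG and AGG followed in 8.90 and 8.01% of distal peaks, compared to 0.565 and 0.462% of these tiles. Runs of A alone, by contrast, were found in 24 distal peaks (0.794%), less often than in sampled tiles (1.32%).

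**Figure D2:**
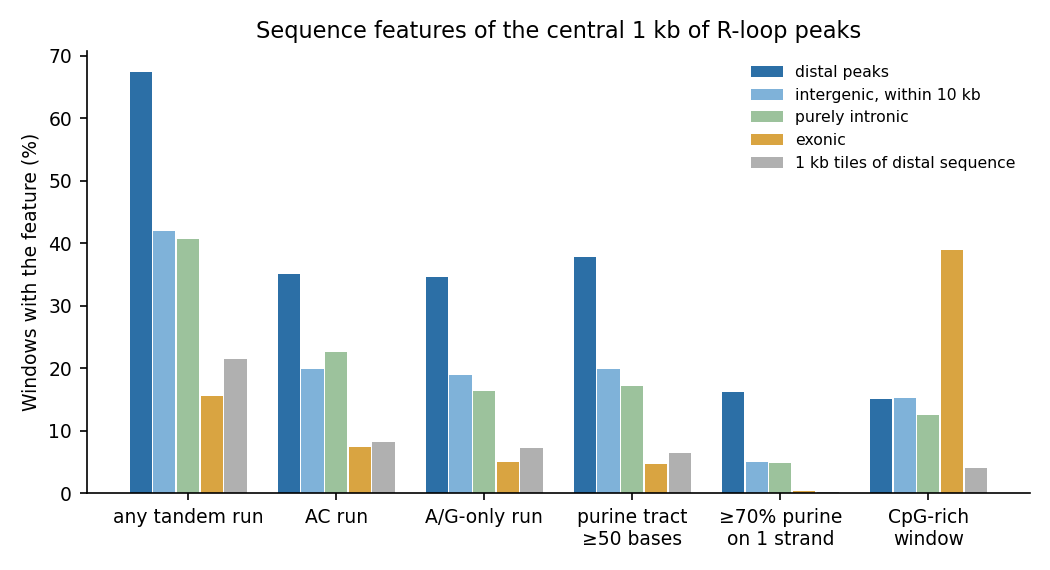
Share of 1 kb windows (y axis, %) with each sequence feature (x axis) in distal peaks, intergenic peaks within 10 kb of a gene, purely intronic peaks, exonic peaks, and tiles of distal sequence, with no error bars because there is 1 peak list. Distal peaks have the highest bar for all features except the CpG-rich window, where exonic peaks reach 38.9% and distal peaks 15.1%.

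Runs concentrated at the middle of distal peaks. In the 100 bp left of the peak centre, 3.19% of bases belonged to AC runs and 6.34% to A/G-only runs, while from 3 to 5 kb on either side of the centre the mean values were 0.431 and 0.665%. The same profile around peaks near genes reached 1.57 and 2.24% in that bin. The A/G-only runs leaned to 1 side of the centre, which was not tested. Read along the strand that carries the purines, the longest such run lay 3′ of the peak centre in 602 distal peaks and 5′ of it in 444, so that 57.6% lay on the 3′ side with a median offset of 45.8 bp. The lean was uneven, at 60.9% for purines on the plus strand, 54.3% for the minus strand, and 53.9% in peaks of at least 1 kb. Read along the plus strand alone, 53.3% of these runs lay right of the centre. Intronic peaks gave 57.8% on the 3′ side, peaks near genes 51.0%, and AC runs in distal peaks, read along the AC strand, 52.9%.

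**Figure D3:**
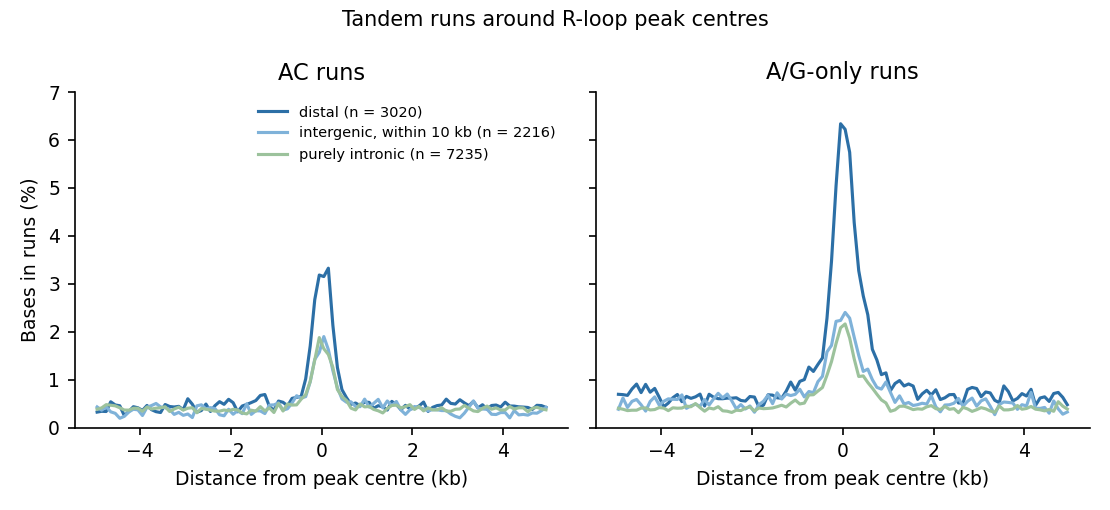
Share of bases in AC runs (left) and in A/G-only runs (right) by distance from the peak centre in kb, in bins of 100 bp, for distal, near-gene intergenic, and purely intronic peaks. Both profiles peak at the centre, and the distal A/G-only profile is the tallest, at 6.34%.

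Most runs in distal sequence nonetheless had no peak. Of 112050 AC runs, 1695 (1.51%) overlapped a peak, and of 135282 A/G-only runs, 2513 (1.86%) did, whereas 0.496% of all other runs did. The units differed. Among units with at least 500 runs in distal sequence, those with high shares in a peak included AAGGAG (137 of 1619 runs, 8.46%), AAGAGG (5.68%), AGG (5.25%), and AAG (5.01%). All of these combine A and G, but the unit AG itself had a share no higher than the 0.946% of ACAGAG. By length, 2.26% of the shortest A/G-only runs (under 40 bases) lay in a peak. The share was 1.44% from 40 to under 60 bases, 1.89% from 60 to under 100 bases, 2.50% from 100 to under 200 bases, and 8.47% (5 of 59 runs) above that.

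Distal peaks often had purines concentrated on 1 strand. The purine share of a window is the percentage of A and G on whichever strand has more of them. In 487 distal peaks (16.1%, 95% exact binomial interval 14.8 to 17.5%) the central 1 kb held at least 70% purines on 1 strand, against 5.05% of intergenic peaks near genes, 4.89% of intronic peaks, 0.404% of exonic peaks, and 0.221% of distal tiles. Purine tracts of at least 50 bases were present in 37.8% of distal peaks and 6.42% of tiles. Counted the other way, the share of tiles whose centre lay in a peak was 0.179% for tiles of 50 to 55% purine and 0.574% for tiles of 60 to 70% purine. It was 10.3% at 70 to 80% purine, 28.6% at 80 to 90%, and 61.1% for the 90 tiles of at least 90% purine. Of these last, 55 tiles lay in a peak and the other tiles did not. Adjacent tiles can lie in the same wide peak, so these are counts of tiles and not of separate peaks.

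**Figure D4:**
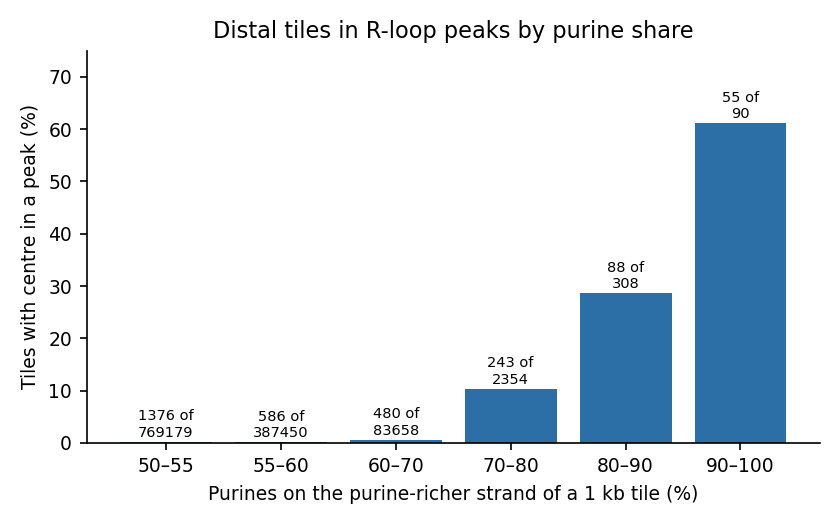
Percentage of 1 kb tiles of distal sequence whose centre lies in an R-loop peak (y axis) by the percentage of purines on the purine-richer strand of the tile (x axis), with the number of tiles above each bar. The share is below 1% up to 70% purine and reaches 61.1% at 90% and above. Adjacent tiles can lie in the same peak.

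Purine-rich distal peaks were farther from genes than distal peaks as a whole, with a median distance of 83.6 kb for those of at least 70% purine and 56.7 kb for all distal peaks. A tandem run was present in 76.0% of them, and 41.1% held a G-run motif (4 runs of at least 3 G separated by 1 to 7 bases, on either strand). These shares were not particular to distal peaks. Equally purine-rich peaks near genes had a run in 71.4% and the motif in 44.6%, and intronic ones in 76.3 and 45.5%. Across all distal peaks that motif, which can fold into a G-quadruplex, was found in 24.4%, compared to 25.2% of peaks near genes and 15.3% of distal tiles. GC skew, which is (G - C)/(G + C), had a median size of 0.283 in distal peaks, 0.111 near genes, and 0.073 in tiles. A skew above 0.2 in either direction was found in 66.2% of distal peaks and 28.4% of peaks near genes.

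Long purine stretches included some of the widest distal peaks. Among 221 distal peaks of at least 2 kb, 6 (2.71%) consisted of at least 80% purine on 1 strand over their whole length, against 0.191% of such peaks near genes and 0.335% of intronic ones. The longest spanned 10.1 kb at chr15:19637973-19648038, 694 kb past the end of Cdh10, which encodes a neuronal cadherin. It consisted of 92.4% purine with a GC skew of 0.95 and 88 G-run motifs, yet held only 79 bases in exact runs and 98.4% of the 31-base words at its centre were unique in mm9. A peak of 8.91 kb lay 1433 kb from the start of Pcdh10, a protocadherin gene, with 87.1% purine and 62 G-run motifs. Another, of 6.76 kb and 101 kb from Atxn7l3b, had 87.7% purine and 53 motifs. The others in this group had Hnf4g, Gm44, and Slc16a10 as their nearest genes and were 2.04 to 2.70 kb wide.

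Distal peaks were richer in GC than distal sequence as a whole. The median over the central 1 kb was 45.1% in distal peaks, 47.2% near genes, and 40.2% in distal tiles. The share of tiles in a peak rose with GC content both with and without a tandem run. For tiles under 40% GC it was 0.168% with a run and 0.0258% without, and for tiles of at least 50% GC it was 2.86% with a run and 1.05% without. A CpG-rich window, defined as 200 bases of over 50% GC with over 0.6 of the CpG dinucleotides expected from base composition, was found in the central 1 kb of 456 distal peaks (15.1%) and in 4.10% of tiles. Such a window was in 15.2% of peaks near genes, 12.5% of intronic peaks, and 24.7% of all peaks. In 832 distal peaks (27.5%) neither a run nor a CpG-rich window was found. Neither was found in 49.3% of peaks near genes, 52.6% of intronic peaks, and 75.2% of tiles.

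Among distal peaks of at least 500 bp, the most GC-rich differed in CpG content. The highest GC content, 74.2%, was in a peak of 628 bp beside Gpc5 with 140 CpG per kb, located 1.86 kb from Mir17hg, the host gene of an oncogenic microRNA cluster. A peak of 1.80 kb near Arhgap32 had 66.6% GC and 101 CpG per kb. A peak of 797 bp near Nhsl1, named for its CpG content, had 66.5% GC and 91.6 CpG per kb. The second highest GC content, 66.8%, was in a peak near Il10rb that held no CpG at all and had a skew of -0.58. The most skewed peaks of at least 500 bp had C and no G on the plus strand and lay near Svip, Sox14, and Med13l, where exact tandem runs filled 25.4, 34.7, and 45.2% of the bases.

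Some distal peaks held starts of genes that the annotation of the files' build lacks. Starts of 300 bases from RefSeq annotation of the later GRCm38 build were searched in mm9 by exact match, and 31873 of 32851 matched once on the same chromosome. A matched start lay inside 32 distal peaks (1.06%), of which 24 belonged to long noncoding RNA genes and 8 to protein-coding genes. A start also lay in 1.85% of peaks near genes, 0.815% of intronic peaks, and 0.390% of 1 kb distal tiles. Among distal peaks of at least 1 kb the share was 3.89%, and among narrower ones it was 0.255%. These shares were not corrected for width, and wider peaks span more sequence in which a start can fall. Within 10 kb of a start lay 15.2% of distal peaks, compared to 7.56% of distal tiles. These 32 peaks are distal under GENCODE M1 but not under the later annotation.

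These later starts included genes that act in neurons. A peak of 2.11 kb held the start of Chaserr, a noncoding RNA known to regulate the neighbouring chromatin remodeller gene Chd2, 15.5 kb from the annotated Chd2 gene. A peak of 2.92 kb held a start of Cplx2, which encodes complexin 2 of the synaptic release machinery, 72.1 kb away from the gene as annotated. A start of Kcnma1, the pore-forming subunit of a calcium-activated potassium channel, lay in a peak of 2.37 kb. Starts of Arhgap32, Sipa1l2, Gatad2b, Tmem132b, Zfp810, and S100a3 lay in peaks of 1.07 to 5.05 kb. The widest peak with a later start, of 7.88 kb, held that of the noncoding gene Gm31102.

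The widest distal peaks included a domain between Wnt7b and Ppara. The widest of all spanned 23.8 kb at chr15:85490519-85514366, between Wnt7b, which encodes a Wnt ligand, and Ppara, a nuclear receptor gene. It lay 22.7 kb from Mirlet7c-2, which encodes a microRNA of the let-7 family that limits progenitor proliferation. With 3 further peaks in the same interval, 42.1 kb were covered within a span of 48.5 kb, the largest total of any interval, and none of the 4 peaks had a tandem run at its centre. The next widest peak, of 14.3 kb, lay 10.1 kb upstream of Acot11, which encodes an acyl-CoA thioesterase. Another peak, not classed as distal, lay 1 bp from it, so its width and class depend on where the peaks were divided. A peak of 8.98 kb lay 34.0 kb past 5031425E22Rik.

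The 5 farthest peaks had no other peak close by. The most distant lay 1716 kb upstream of Cdh6, a cadherin gene, and was 986 bp wide with 36.7% GC. Others lay 1687 kb past Grik2, a kainate receptor gene, 1463 kb past Gm1840, 1462 kb past D3Ertd751e, and 1444 kb past Pcdh9. Their nearest other peaks were 273 to 1318 kb away. This did not hold for all very distant peaks, since the next in order, the wide peak near Pcdh10, had a neighbour at 58.4 kb. The peak past Gm1840 was filled to 26.1% with runs of AAG and AAGAGG, the peak past D3Ertd751e to 28.4% with runs, and the remaining peaks of this group held none.

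Distal peaks were spread over many intervals between genes. Of 8842 intervals with distal sequence, 1826 held at least 1 distal peak, 1163 of them exactly 1, and 63 held at least 5. The 12 richest intervals together held 114 peaks. The interval with the most lies between Med13l and Tbx3 and held 15 peaks in 905 kb, 13 of which were nearest to Tbx3, a T-box transcription factor gene best known for limb and heart development. These 13 lay 86.4 to 307 kb upstream of Tbx3, the widest spanned 3.68 kb, and 9 of the 15 had a tandem run. The neighbouring interval, from 2410131K14Rik to Med13l, held another 10 peaks, 7 with a run.

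A different pattern was seen between Klf14 and AB041803. Here 9 peaks fell within 56.0 kb of the 207 kb interval, 8 of them were at least 1 kb wide, and together they covered 23.9 kb. The widest spanned 6.17 kb, and 2 of the 9 had a tandem run. The Vrk1 to 3110018I06Rik interval held 13 peaks, 9 with a run, and the Lrig3 to Xrcc6bp1 interval held 11, 5 with a run. Further intervals with 8 or 9 peaks lay between C130026L21Rik and Cryba4, between 4931429L15Rik and Cadm1, between Irf2bp2 and Tomm20, between Sall3 and Galr1, and between Auts2 and Gatsl2. Those with 7 peaks included Ezh2 to Pdia4, with 6 of 7 holding a run, and Tacc1 to Fgfr1.

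**Figure D5:**
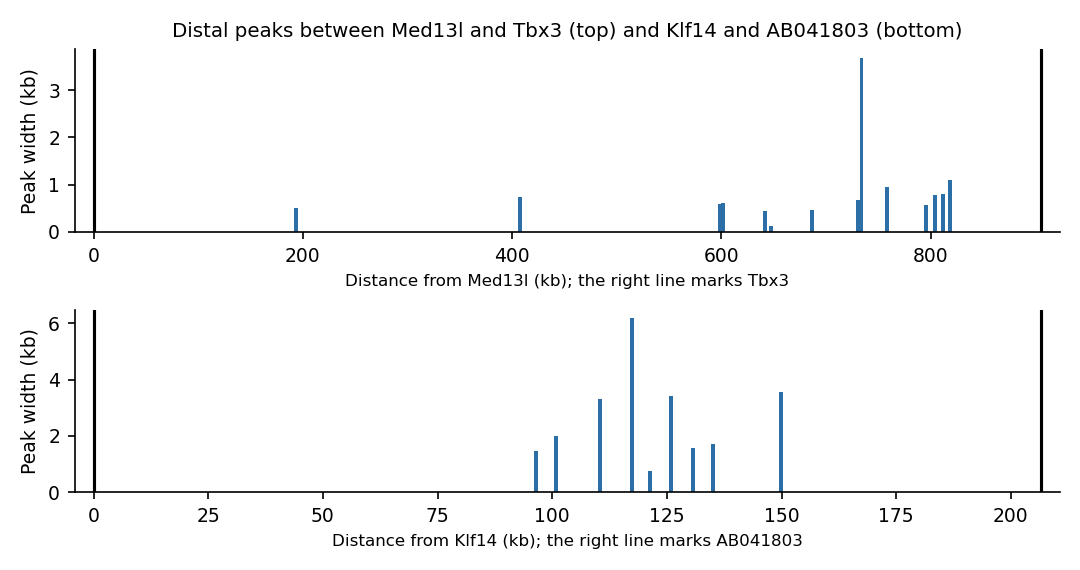
Width in kb (bar height) of each distal peak against its distance in kb from the left gene, for the interval from Med13l to Tbx3 (top, 15 peaks) and from Klf14 to AB041803 (bottom, 9 peaks); black lines mark the gene edges and the bars are drawn wider than the peaks. The upper peaks are mostly under 1 kb and lie on the Tbx3 side, while the lower peaks are wider and lie within 56.0 kb.

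Neural transcription factor genes had about as many distal peaks per Mb as genes in general. The 105 annotated neural transcription factor genes were nearest to 67 distal peaks, or 2.53 peaks per Mb of the distal sequence nearest to them, close to 2.43 peaks per Mb over all genes. The 67 peaks were divided among 40 of these genes. Sall3 had 5 such peaks, Auts2 had 4, and Emx2, Tshz3, and Zeb2 had 3 each. The 3 peaks nearest to Emx2, a forebrain patterning factor, lay within 30.2 to 42.3 kb, whereas those of Zeb2 lay 350 to 1260 kb upstream. Transcription factors of other lineages had 34 peaks at 4.68 per Mb, of which 13 were those of Tbx3 and 3 each were those of Gata3 and Osr1. Secreted ligands had 21 peaks at 2.24 per Mb, with 3 at the neuregulin gene Nrg3.

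Marker genes had little distal sequence and between 3 and 9 distal peaks a list, so their densities rest on small counts. The NSPC and glial markers had 9 peaks at 3.00 per Mb, with 3 of them upstream of the endothelin receptor gene Ednrb, and neuron markers had 4 at 0.846 per Mb. Endothelial markers had 6 peaks at 4.12 per Mb, and microglia and blood markers had 3 at 14.1 per Mb, in only 0.213 Mb of sequence. As a check of the cells, a peak inside the gene was found for 22 of 33 NSPC and glial markers, 7 of 27 neuron markers, 5 of 22 microglia and blood markers, and 4 of 16 endothelial markers. Over all protein-coding genes the share was 39.7%, against 66.7% of the NSPC and glial markers and 22.7 to 25.9% of the other marker lists. Olfactory and vomeronasal receptor genes, which act in sensory neurons of the nose, had 11 distal peaks at 0.531 per Mb. A list of 9 long genes with recurrent break clusters, which is only some of those the study names, had 7 distal peaks at 1.07 per Mb.

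Measures of the method were set beside these results. Copies of 31-base words in mm9 show where short reads have several possible origins. In the median distal peak 85.3% of the words of the central 1 kb were unique, compared to 93.8% near genes and 95.3% in sampled distal tiles. In distal peaks of at least 70% purine the median was 67.5%, and in such peaks near genes and in introns it was 64.6 and 65.1%. The lower tail ran the other way, with under 50% unique words in 7.51% of distal peaks and in 16.8% of tiles. The study's methods name uniquely mapped reads for its density tracks and do not say whether the peaks rest on these alone, and the part of read placement in the repeat-rich peaks was not tested. Restriction sites of the 5 enzymes used numbered 1.09 per central kb of distal peaks, against 1.97 in distal tiles. Other peaks had fewer, with 0.643 near genes and 0.624 over all peaks. The restriction fragment around a peak centre had a median length of 1559 bp in distal peaks and 2082 bp over all peaks. Counting both ends of each distal peak, 28.0% were no more than 100 bp from a site, against 28.3% over all peaks. Among peaks under 1 kb, distal peaks had the higher share, 27.3% of ends, against 20.7% near genes and 19.7% for intronic peaks. The part of cut sites in this difference was not tested. The input library was not used here, so the recovery of repeats without S9.6 was not tested.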

How the data were processed

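DRIP-seq was performed by the authors in NSPCs from 3 biological replicates. Reads were trimmed (Trim Galore 0.6.6, per the labels' processing notes) and aligned to mm9, duplicates were removed, and a Hidden Markov Model called the peaks. The authors deposited 1 list, whose other values are peak positions in base pairs; the rule that combined replicates is not given in the sources used here. The sequencing depth is not known.

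From the list, peaks were classified by overlap of at least 1 bp with 37273 GENCODE M1 genes and by the gap to 22367 protein-coding genes. Sequence came from mm9, with tandem runs, purine share, GC skew, and 31-base word copies computed in the central 1 kb and in all, or for word copies every 200th, 1 kb tiles of distal sequence; single units were counted in every 20th. RefSeq starts came from GRCm38.p6. Calculations used Python 3.11.15, numpy 2.4.6, pandas 2.3.3, scipy 1.17.1, and numba 0.67.0, and figures matplotlib 3.10.9. The search and distance steps were checked on simulated data. Binomial intervals treat peaks as independent and cover counting only.

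With 1 list no test was run. Genes named flank the 12 richest intervals, lie nearest to the widest, farthest, and most GC-rich, CpG-rich, skewed, or motif-rich peaks of at least 500 bp, have at least 3 distal peaks within a list, or sit at the 10 kb limit. Genes with later starts were added. The members, lists, and tests were chosen with earlier results of these data known. The input sample was not analysed here. Some sequences are not reported here.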

Additional observations from a re-analysis of the deposited data

How the results depend on the processing

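Of 83 values recomputed under other settings, 43 stayed within their range and 40 moved beyond it, where the range was 1.5-fold for the number, density, and covered bases and the interval of the main value for shares and medians. The start-side share of 50.8% lay near an even split and fell to 49.8% at more than 5 kb. With the limit at more than 5 kb, distal peaks were 16.5% of all peaks, with a median width of 614.5 bp, 21.4% with a neighbour within 10 kb, and a median GC content of 45.4%. At more than 20 kb these values were 11.0%, 572 bp, 13.3%, and 44.7%, with a tandem run in 69.5% and at least 70% purine in 17.6%. At more than 50 kb, 1620 peaks remained (7.32%), covering 1265 kb, with a median width of 560 bp, 11.6% with a neighbour, 44.1% GC, a tandem run in 70.4%, and at least 70% purine in 19.3%. With peaks of at least 1 kb only, 668 were distal (5.14%), covering 1366 kb at 0.531 per Mb, with a median width of 1581.5 bp, 26.3% with a neighbour, 46.55% GC, 48.95% on the start side of a gene, a tandem run in 54.0%, and at least 70% purine in 19.3%. A distance limit to any annotated gene gave 12.2% of peaks, and merging peaks closer than 1 kb gave 13.6% with a neighbour. A neighbour lay within 5 kb for 9.40% and within 20 kb for 27.7%. Median GC was 45.8% both over the whole peak and over 500 bp. Of peak edges, 6.83% lay within 20 bp of a restriction site and 67.7% within 500 bp. The G-run motif with up to 12 bases between runs was in 33.0%. Settings for tandem runs and purine share were chosen after seeing the data: runs of at least 36 bases were in 49.4%, runs overlapping the peak in 61.5%, and at least 70% purine over the whole peak in 28.9%. No paired analysis was possible because there is 1 peak list. Without signal or replicates, the strength of a peak and the chance of missing one are unknown.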
